A study of Mus musculus with 4 samples.

Results

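Acid-base and chloride transporters and carbonic anhydrases were followed in 4T1Br cells, a subline of the mouse breast cancer line 4T1 known for growing in brain, with and without a hairpin against YTHDF3, a reader protein of N6-methyladenosine in messenger RNA. The members were all probe sets whose only gene symbol in the platform annotation began with Slc4a, Slc9a, Slc12a, Slc26a, Clcn or Car and a number, Car9 being left out. The rule gave 60 probe sets for 58 genes, of 22180 genes on the array. Both groups were cultured 4T1Br cells that had taken up a lentivirus and been selected with puromycin; shControl (2 arrays) carried the control hairpin and shYTHDF3 (2 arrays) the hairpin against YTHDF3. Sample titles shorten the name of the line to 4T1. The labels do not say how many hairpin sequences or cultures were used, so the spread between arrays may be technical. Probe sets shared with another gene, as for Car5a and Car14, were not analysed here.

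Cells hold their pH by moving acid and base across membranes. Sodium-proton exchangers of the Slc9 family push protons out or into organelles, Slc4 and Slc26 proteins carry bicarbonate, chloride and sulfate, and carbonic anhydrases interconvert carbon dioxide and bicarbonate on either side of the membrane. Slc12 cotransporters set cell chloride and volume, and CLC proteins are chloride channels at the surface or chloride-proton exchangers in endosomes and lysosomes. Tumour cells with high glycolysis are known for exporting acid through such proteins.

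The targeted transcript checked the labels. Ythdf3 read 8.98 and 8.81 in shControl against 8.21 and 8.16 in shYTHDF3 (log2), which left 61.1% of the shControl level (limma adjusted p = 0.0355), so the knockdown was partial at the RNA level. That call ended with any 1 array left out (adjusted p of 0.138 to 0.193) and when dim probe sets were not filtered out (0.0866), while both shYTHDF3 arrays were lower. Array medians over all probe sets ran from 4.42 to 4.47. Of the epithelial markers, 5 of 7 measured were above background, Krt8 and Krt18 among them, while Epcam and Krt14 were below it and Cdh1 averaged 4.47. The leukocyte marker Ptprc was below background on every array. By their mean over the arrays, 1 of 5 endothelial markers (Cdh5) and 3 of 7 markers of neurons and glia (Rbfox3, Syt1 and Mbp) were above it. The log2 of the summed epithelial marker signal was 11.38 to 11.49 in shControl and 11.85 to 11.93 in shYTHDF3. For 8 fibroblast and pericyte markers it was 9.96 to 10.02 and 9.30 to 9.33, and for 9 leukocyte and microglial markers 8.06 to 8.28 and 7.72 to 7.77. A few members carried these sums. Krt18 and Krt8, with the highest signals of the epithelial markers, weigh most in the epithelial sum and differed by 0.57 and 0.31. Krt7, at a lower signal, rose (limma adjusted p = 0.00816), while Krt19 differed by -0.53. Dcn fell by 2.65 and Pdgfra fell by 0.61, while Pdgfrb differed by 0.21 and Col1a1 by 0.10. Cd68, the 1 leukocyte marker above background on average, differed by -0.72. The part of these genes in the results on transporters was not tested.

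Slc4a11 and Slc9a9 rose in shYTHDF3, none fell, and 31 members above background did not pass the test. Background was set at log2 4.28, the 95th percentile of the mean values of 1108 probe sets for olfactory receptors, and 33 of the 58 genes lay above it. Of all 13056 genes tested, 2.73% were called by limma at an adjusted p under 0.05 in either direction, against 6.06% of the members (2 of 33). By direction, 2 members rose beside 1.28% of all genes tested, and 0 fell beside 1.45%. The difference between these shares was not tested. Slc4a11, among the 2, was singled out with its rise already known, so the member shares are partly set by that choice. It is in every count of higher members given here. At an unadjusted p under 0.05, 8 members were higher (24.2%, beside 12.2% of all genes tested) and 4 were lower (12.1%, beside 10.4%). The groups did not overlap in 18 members (54.5%), close to 54.0% of all genes tested: 9 were higher, beside 28.3%, and 9 lower, beside 25.7%. The median change of the 33 was 0.01, and that of all genes tested was 0.0057. Changes are differences of mean log2 values, shYTHDF3 minus shControl, and levels of different probe sets are not compared with each other. In bulk RNA, fewer cells that express a gene and less RNA per cell cannot be told apart.

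**Figure D1:**
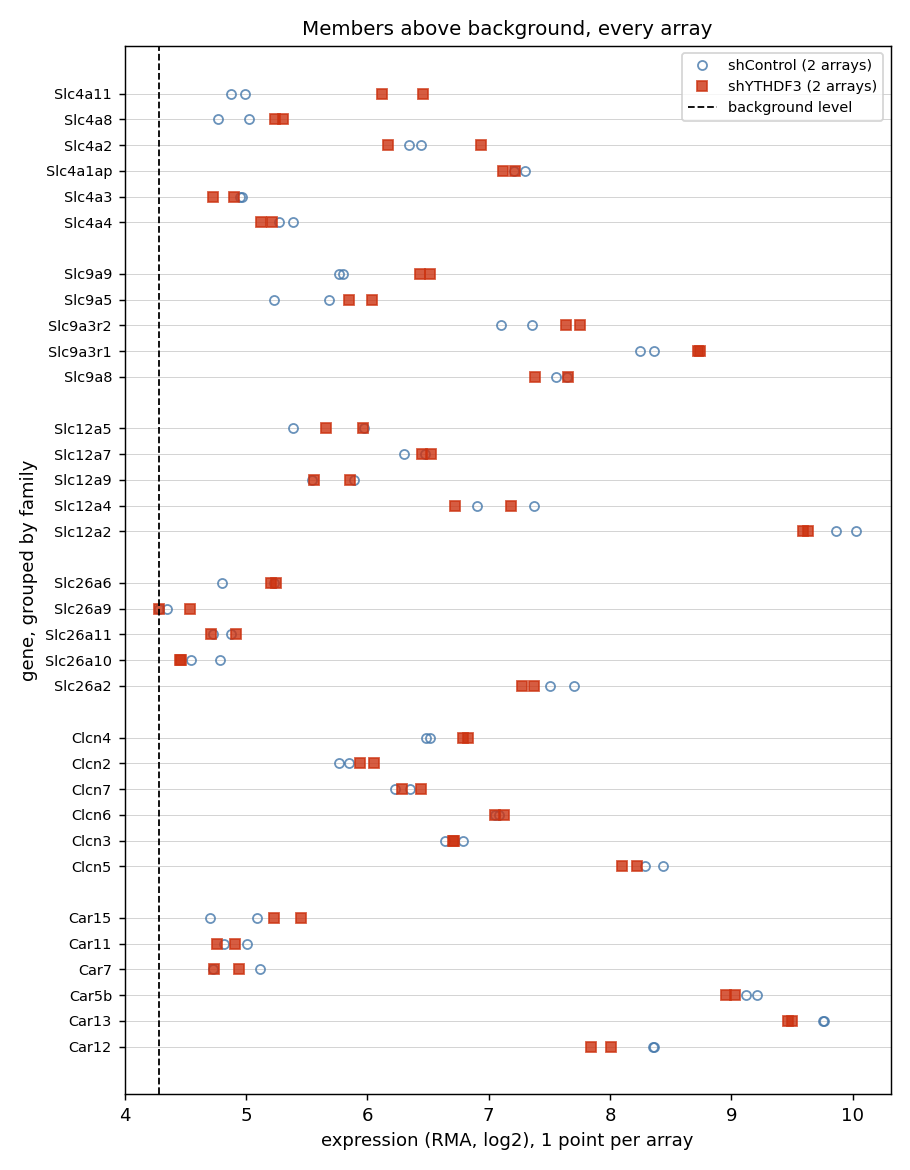
Expression (RMA, log2) of the 33 members above background, 1 point per array, grouped by family; open circles are the 2 shControl arrays, filled squares the 2 shYTHDF3 arrays, and the dashed line is the background level of 4.28. For Slc4a11 the shYTHDF3 arrays sit at 6.46 and 6.12, apart from the shControl arrays at 4.99 and 4.87.

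The Slc4 family holds the chloride-bicarbonate exchangers and sodium-coupled bicarbonate transporters. Slc4a11 differs from its relatives in that it is known to carry protons or their equivalents, with ammonia as a proposed substrate, and not bicarbonate; mutations of the human gene cause corneal endothelial dystrophy. Its probe set (17391709) read 4.99 and 4.87 in shControl against 6.46 and 6.12 in shYTHDF3. Both shYTHDF3 arrays were above both shControl arrays, by at least 1.13. The rise was 1.36 (SE 0.14, 95% interval 1.02 to 1.70, limma adjusted p = 0.0229), a 2.56-fold difference. Of the 167 genes called higher, 7 rose more. The gene was singled out with its rise already known, so the p-value is a description.

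The level of Slc4a11 in shControl was low. Its shControl mean of 4.93 ± 0.08 (SD, n = 2) lay 0.65 above the background level, and 19 of the 1108 olfactory receptor probe sets had a higher shControl mean. In shYTHDF3 its mean was 6.29 ± 0.24 (SD, n = 2), and 1 olfactory receptor probe set was higher. With the background set instead at the 99th percentile of those probe sets, 5.50, the shControl mean would be under it, and the part of the rise measured above that level would be 0.78. The call ended when any 1 of the 4 arrays was left out, at limma adjusted p between 0.0733 and 0.176 and with a change between 1.19 and 1.53. It held under the other 10 alternatives, at adjusted p from 0.000813 to 0.04998, the last when dim probe sets were not filtered out. The 99th percentile is among these 10, but Slc4a11 passed that filter only through its shYTHDF3 arrays, so that setting adds no support.

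The other Slc4 members did not pass the test. Slc4a8, a sodium-driven chloride-bicarbonate exchanger, read 4.77 and 5.02 in shControl against 5.24 and 5.30 in shYTHDF3. Its groups did not overlap, and its change was 0.37 (95% interval 0.09 to 0.66, limma adjusted p = 0.144). Slc4a2, the widely expressed anion exchanger AE2, read 6.34 and 6.44 in shControl but 6.93 and 6.17 in shYTHDF3. The shYTHDF3 arrays lay on both sides of the control arrays, 0.76 apart, and the change of 0.16 (95% interval -0.43 to 0.76) turned to -0.22 without shYTHDF3 1. Slc4a4, an electrogenic sodium bicarbonate cotransporter, read 5.27 and 5.38 against 5.21 and 5.12, a change of -0.16. Slc4a3, another anion exchanger, read 4.97 and 4.95 against 4.90 and 4.73, a change of -0.14. Both sat slightly lower on both shYTHDF3 arrays. Slc4a1ap encodes an adaptor protein named after Slc4a1 and is no transporter; it read 7.30 and 7.20 against 7.12 and 7.22 (-0.08). The erythrocyte exchanger gene Slc4a1 read 4.00 and 4.19 in shControl against 4.65 and 3.92 in shYTHDF3, so that 1 array alone was above background. The bicarbonate transporter genes Slc4a5, Slc4a9 and Slc4a10 were below background on every array.

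Of the sodium-proton exchanger genes and scaffold protein genes with symbols beginning with Slc9a, 1 of the 5 members above background passed the test. In 4 of the 5 the shYTHDF3 arrays were higher without overlap, beside 28.3% of all genes tested. That count includes both scaffold genes, Slc9a3r1 and Slc9a3r2, and was not tested. Slc9a9, whose product exchanges sodium or potassium for protons in recycling endosomes, read 5.77 and 5.80 in shControl against 6.51 and 6.43 in shYTHDF3 (probe set 17520396). The arrays of each group agreed closely and the groups were well apart. Slc9a9 rose by 0.69 (SE 0.09, 95% interval 0.46 to 0.92, limma adjusted p = 0.0321), or 1.61-fold. Its adjusted p ran from 0.00787 to 0.176 over the alternatives. The call ended with any 1 array left out (adjusted p of 0.145 or more) and when dim probe sets were not filtered out (0.0808).

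Slc9a3r1 and Slc9a3r2 encode NHERF1 and NHERF2, PDZ scaffold proteins that tether exchangers and other membrane proteins to ezrin beneath the apical membrane. Slc9a3r1 (probe set 17258131) read 8.37 and 8.25 in shControl against 8.74 and 8.72 in shYTHDF3, a change of 0.43 (95% interval 0.19 to 0.66, limma adjusted p = 0.0769). Slc9a3r2 (probe set 17341963) read 7.10 and 7.35 in shControl against 7.63 and 7.75 in shYTHDF3, a change of 0.47 (95% interval 0.17 to 0.76, limma adjusted p = 0.103). In neither did the groups overlap. When a trend of variance with intensity was fitted, limma called 10.9% of all genes tested, against 2.73% without it. With an intensity trend in limma's variance model both passed, at adjusted p of 0.0112 and 0.0296; over all alternatives the adjusted p ran from 0.00972 to 0.302 for Slc9a3r1 and from 0.0253 to 0.372 for Slc9a3r2.

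The sequences before the starts of this scaffold pair are shown because both genes sat higher on both shYTHDF3 arrays, though neither was called. Of all genes tested, 28.3% sat higher in this way. They are the 250 bases upstream of a RefSeq transcript start in GRCm38.p6, 5′ to 3′ on the gene's strand, with capitals marking GGGCGG, the GC box, on either strand. The first is chr11:115163091-115163340 on the plus strand and the second chr17:24650306-24650555 on the minus strand. Slc9a3r2 had 2 promoter entries, and the more upstream was used.
Slc9a3r1: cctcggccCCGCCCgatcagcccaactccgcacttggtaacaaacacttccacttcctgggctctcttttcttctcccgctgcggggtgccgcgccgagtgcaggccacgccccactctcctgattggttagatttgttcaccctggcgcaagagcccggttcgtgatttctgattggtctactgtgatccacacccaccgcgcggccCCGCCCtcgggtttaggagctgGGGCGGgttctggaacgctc
Slc9a3r2: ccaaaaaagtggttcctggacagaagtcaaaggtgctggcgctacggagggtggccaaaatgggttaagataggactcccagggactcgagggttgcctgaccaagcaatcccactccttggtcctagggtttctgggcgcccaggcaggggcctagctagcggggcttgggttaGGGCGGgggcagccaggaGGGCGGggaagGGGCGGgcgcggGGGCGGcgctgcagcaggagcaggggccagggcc
The Slc9a3r1 window held 3 GC boxes and 20 CpG dinucleotides, and the Slc9a3r2 window 4 GC boxes and 12 CpG dinucleotides. Of 32851 promoter windows of this length, 32.7% held at least 1 GC box, and the median was 6 CpG dinucleotides. TATAAA on either strand (12.4% of windows) and the palindrome CACGTG (6.02%) were in neither window, which says only that these letters are not there. The searched motifs do not overlap each other in these windows. Promoter entries were matched by symbol for 44 of the 58 members.

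Slc9a5, a sodium-proton exchanger best known from brain, read 5.68 and 5.23 in shControl against 5.85 and 6.04 in shYTHDF3. The groups did not overlap, but the control arrays lay further apart than the shYTHDF3 arrays, and the change of 0.49 (95% interval 0.07 to 0.91) did not pass (limma adjusted p = 0.172). Slc9a8, an exchanger of the Golgi, read 7.65 and 7.56 against 7.65 and 7.38, and its groups overlapped (change -0.08, 95% interval -0.39 to 0.22). The plasma membrane exchanger genes Slc9a2, Slc9a3 and Slc9a4 and the trans-Golgi exchanger gene Slc9a7 were below background on every array. Slc9a2 had the largest difference among them, reading 3.37 and 3.48 in shControl against 3.67 and 4.05 in shYTHDF3.

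**Figure D2:**
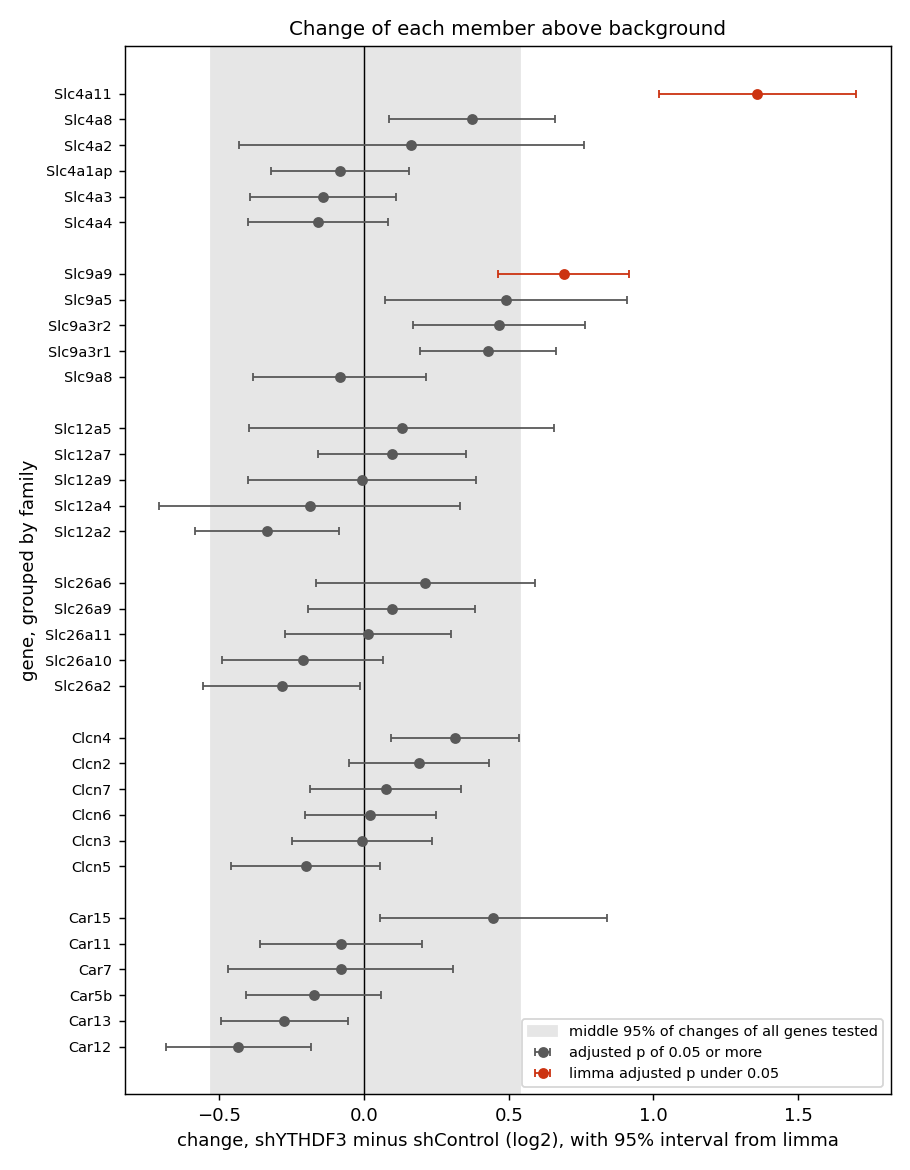
Change of each member above background, shYTHDF3 minus shControl (log2), with limma's 95% interval as bars; red marks an adjusted p under 0.05 and the grey band spans the middle 95% of the changes of all genes tested (-0.53 to 0.54). Slc4a11 (1.36) and Slc9a9 (0.69) are the 2 members outside the band.

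Cation-chloride cotransporters of the Slc12 family held no call. Slc12a2, or NKCC1, which brings sodium, potassium and chloride into the cell, read 10.03 and 9.86 in shControl against 9.59 and 9.63 in shYTHDF3. Both shYTHDF3 arrays were lower, and the change of -0.34 (95% interval -0.59 to -0.09) did not pass (limma adjusted p = 0.135; fitting a trend of variance with intensity gave 0.0217, and all alternatives 0.0198 to 0.375). Of all genes tested, 10.9% were called with that trend, against 2.73% without it. The potassium-chloride cotransporters, which carry chloride out, showed overlapping groups. Slc12a4 read 7.37 and 6.91 against 6.72 and 7.18 (change -0.19, 95% interval -0.71 to 0.33). A second Slc12a4 probe set was below background, at 3.96 and 4.14 against 3.66 and 3.68. Slc12a5, the neuronal KCC2, read 5.38 and 5.97 against 5.96 and 5.66 (change 0.13). These 2 genes had wide spreads within a group. Slc12a7 read 6.47 and 6.30 against 6.52 and 6.45 (change 0.10), and Slc12a9, a relative with no settled transport activity, read 5.54 and 5.89 against 5.56 and 5.85 (change -0.0060). The thiazide-sensitive cotransporter gene Slc12a3 averaged below background, reading 4.39 and 4.36 in shControl, just above it, and 4.12 and 4.04 in shYTHDF3. Slc12a1, the kidney form of the sodium-potassium-chloride cotransporter, and Slc12a8 were below background on every array.

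Among the Slc26 anion transporters none passed. Slc26a2, the sulfate transporter that supplies proteoglycan sulfation, read 7.71 and 7.51 in shControl against 7.37 and 7.27 in shYTHDF3. It sat lower on both shYTHDF3 arrays, by -0.28 (95% interval -0.56 to -0.01, limma adjusted p = 0.203). Slc26a6, a chloride-bicarbonate and oxalate exchanger, read 5.23 and 4.80 against 5.25 and 5.20, and its change was 0.21, or -0.00027 without shControl 2, the lower of the control arrays. Slc26a10 read 4.55 and 4.79 against 4.45 and 4.46 (change -0.21), without overlap. Slc26a11, a sulfate and chloride transporter, read 4.72 and 4.87 against 4.92 and 4.71 (change 0.01). Slc26a9, an epithelial chloride transporter, read 4.35 and 4.29 against 4.29 and 4.54 (change 0.10), at the background level itself. The other 6, below background on every array, were the sulfate transporter gene Slc26a1, the intestinal exchanger gene Slc26a3, Slc26a4 (pendrin), Slc26a5 (prestin, the motor of outer hair cells), Slc26a7 and the testis form Slc26a8. Their values ran from 2.95 to 3.66.

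The CLC family was the most fully detected, with 6 of its 7 members above background, and none passed. Clcn4, an endosomal chloride-proton exchanger, read 6.48 and 6.51 in shControl against 6.83 and 6.79 in shYTHDF3. The arrays of each group lay close together, and the change was 0.31 (95% interval 0.09 to 0.54, limma adjusted p = 0.124). Clcn2, a plasma membrane chloride channel, read 5.76 and 5.85 against 5.94 and 6.06 (change 0.19). Clcn5, the endosomal exchanger mutated in Dent disease, read 8.43 and 8.29 against 8.10 and 8.22 (change -0.20). Clcn2 and Clcn5 thus had groups that did not overlap, in opposite directions. Clcn3, of endosomes and synaptic vesicles, read 6.79 and 6.64 against 6.71 and 6.71 (change -0.0075). Clcn6, of late endosomes, read 7.05 and 7.08 against 7.13 and 7.05 (change 0.02). Clcn7, the lysosomal exchanger, read 6.35 and 6.23 against 6.44 and 6.28 (change 0.07). In these 3 the groups overlapped, and their 95% intervals together ran from -0.25 to 0.34. Clcn1, the skeletal muscle channel, was below background on every array.

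None of the 6 carbonic anhydrases above background passed the test, and their median change was -0.13. In 3 of them the shYTHDF3 arrays were lower without overlap, beside 25.7% of all genes tested, and in 1 they were higher. Car12, a membrane enzyme with its active site outside the cell, read 8.37 and 8.36 in shControl against 8.01 and 7.84 in shYTHDF3. The shYTHDF3 arrays were both lower, and the change was -0.43 (95% interval -0.68 to -0.18, limma adjusted p = 0.0846). It passed with an intensity trend (adjusted p = 0.0162) and with the background at the 99th percentile (0.0347), and its adjusted p ran from 0.0141 to 0.351 over all alternatives. Car13, a cytosolic enzyme, read 9.76 and 9.76 against 9.47 and 9.50, a change of -0.28 (95% interval -0.50 to -0.06, limma adjusted p = 0.151; fitting a trend of variance with intensity gave 0.0276, and all alternatives 0.0276 to 0.414). Car5b, a mitochondrial enzyme, read 9.21 and 9.12 against 8.96 and 9.03, a change of -0.17. All 3 were lower on both shYTHDF3 arrays. The intensity trend called 10.9% of all genes tested and the 99th percentile setting 11.4%, against 2.73% with neither.

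Car15, which is anchored to the outer membrane by a lipid, went the other way, with 4.70 and 5.09 in shControl against 5.45 and 5.23 in shYTHDF3 (change 0.45, 95% interval 0.05 to 0.84, limma adjusted p = 0.181). Car11, a related protein without enzyme activity, read 4.81 and 5.01 against 4.90 and 4.76 (change -0.08). Car7, a cytosolic enzyme, read 4.72 and 5.12 against 4.94 and 4.74 (change -0.08). The groups of Car11 and Car7 overlapped. The classic cytosolic enzyme genes Car1, Car2 and Car3, the secreted form Car6, and Car8 and Car10, which encode relatives without enzyme activity, were below background on every array. Car4, a lipid-anchored enzyme, averaged below background with 1 of 4 arrays above it.

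**Figure D3:**
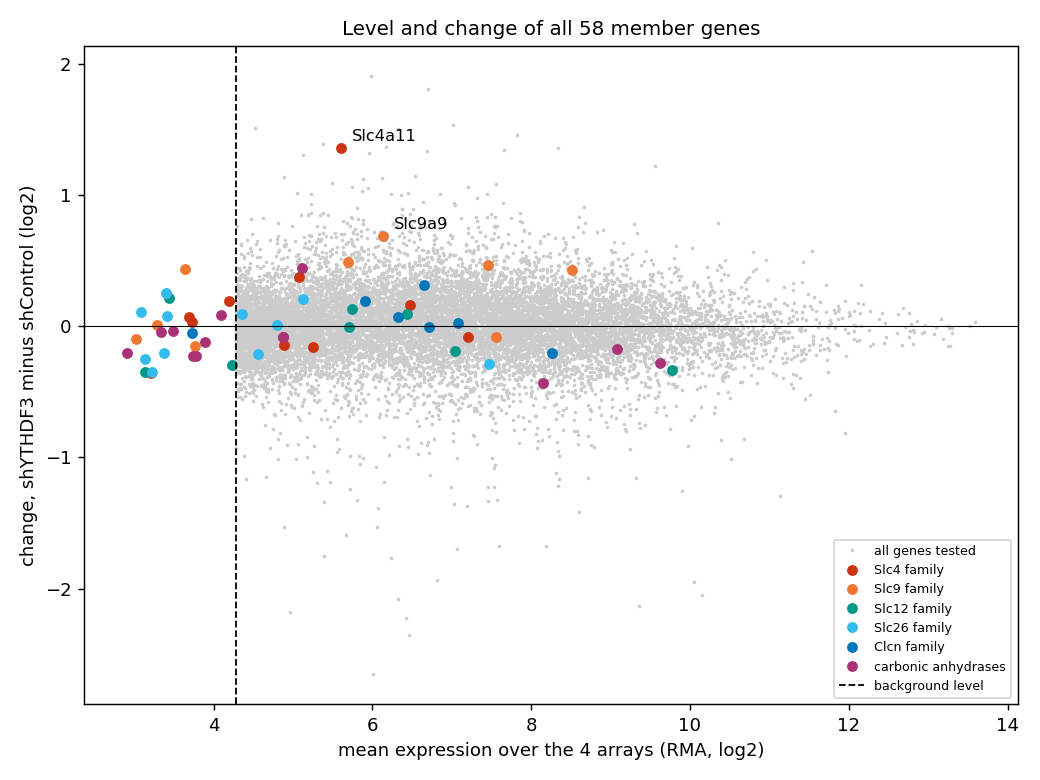
Mean expression over the 4 arrays (RMA, log2) against the change, shYTHDF3 minus shControl (log2), for all 58 member genes (coloured by family) and all 13056 genes tested (grey); the dashed line is the background level of 4.28. The 25 members left of the line were not tested, and Slc4a11 stands highest among the members.

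Of the 25 members below background, 22 were below it on every array, and their group differences, from -0.36 to 0.44, are not read as changes. Among the 31 tested members that were not called, the 95% intervals ran from -0.71 to 0.91 at their widest, so none reached a 2-fold change in either direction. These intervals do not show that the members were unchanged.

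Genes that work beside these families were taken from 6 lists, with 67 of 100 measured genes above background. Of these, 2 rose, none fell and 65 did not pass, beside 2.73% of all genes called. Both risers were on the list of other chloride channels. Ttyh3, a tweety family protein first described as a chloride channel, read 8.38 and 8.04 in shControl against 9.09 and 9.16 in shYTHDF3, a rise of 0.91 (SE 0.14, limma adjusted p = 0.0377). Lrrc8b, a subunit of the volume-regulated anion channel, read 7.28 and 7.09 against 7.91 and 7.99, a rise of 0.76 (SE 0.11, limma adjusted p = 0.0341). Neither pair of groups overlapped. The other 16 chloride channel genes above background did not pass, and the median of the 18 was -0.05. Both calls ended with any 1 array left out, at adjusted p between 0.131 and 0.191, and when dim probe sets were not filtered out (0.0866 and 0.0826). With the background at the 90th percentile the Ttyh3 call ended as well (0.0517). Over all alternatives the adjusted p ran from 0.000884 to 0.191 for Ttyh3 and from 0.00154 to 0.190 for Lrrc8b.

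None of the other lists held a call by limma. Of 22 proton pump and proton channel genes above background, an unadjusted p under 0.05 was reached by 3 that were higher and 2 that were lower (median -0.03). Of all genes tested, 12.2% were higher and 10.4% lower at that level, and no list was tested against these shares. Tcirg1, an a subunit of the vacuolar proton pump, differed by 0.43 (limma adjusted p = 0.0764), and Atp6v1g1, a stalk subunit, by 0.30 (adjusted p = 0.175). Of 5 monocarboxylate transporter genes and partners, 1 was lower at that level (median -0.14). The lactate and proton cotransporter gene Slc16a1 differed by -0.30 and its chaperone gene Bsg by -0.16. Of 13 regulators and partner proteins, 1 was lower at that level (median -0.02). Cab39, which activates the kinases that phosphorylate Slc12 cotransporters, differed by -0.37 and the kinase gene Wnk2 by -0.22. Sodium pump subunits (5 above background, median -0.13) and proton sensors (4, median 0.04) had none at an unadjusted p under 0.05. There Fxyd6 differed by -0.22, Fxyd1 by 0.22, Asic1 by 0.22 and Asic4 by -0.11.

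**Figure D4:**
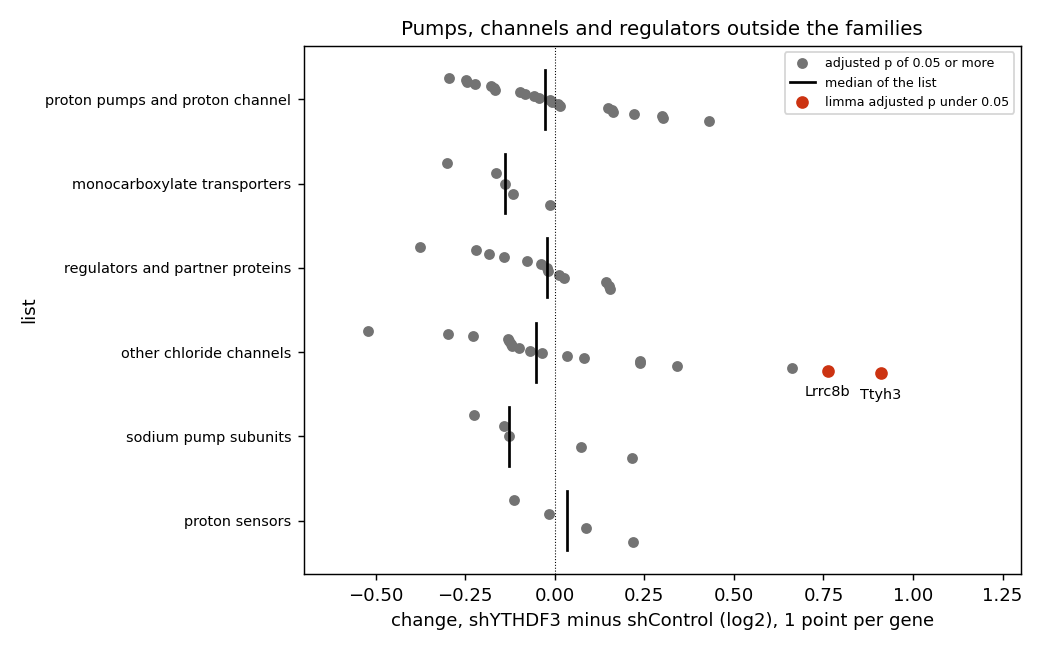
Change, shYTHDF3 minus shControl (log2), of each gene above background in 6 lists of pumps, channels, regulators and sensors; black bars are list medians and red points passed limma at an adjusted p under 0.05. Ttyh3 (0.91) and Lrrc8b (0.76) are the 2 red points, and every list median lies between -0.14 and 0.04.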

How the data were processed

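The deposited table holds log2 values, 1 for each probe set on each array, made by the authors with RMA according to the submitters' processing notes. The program's name and version were not given in the sources used here, and the log base was taken from RMA's usual scale. RMA makes array distributions alike, so a shift of most genes one way would not be seen. Of 41345 probe sets, 23521 had 1 gene symbol in the platform annotation, and 23328 of these took the current RefSeq symbol through their Entrez identifier. A gene's value was its probe set with the highest mean. The 13056 genes above background were fitted with limma 3.58.1 (lmFit and eBayes) in R 4.3.3. Tests were two-sided, and p-values were adjusted over all of these genes (Benjamini-Hochberg). The step was also run on simulated data with independent normal noise, so that run does not bear on variation shared between arrays. Arrays carry no depth, and their number limits the precision.

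The members and gene lists were chosen with earlier results of these data known. Every member is named, and members above background in any group are given with every array. Of each list, genes past the threshold are named or, with none, the 2 largest changes. Promoter sequences are RefSeq's (GRCm38.p6). Alternatives changed the filter, the background level, the variance model, the normalization, the summary of probe sets, the replicate block and the arrays used. Plots used matplotlib 3.10.9 (Python 3.11.15).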

Additional observations from a re-analysis of the deposited data

How the results depend on the processing

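The 33 members above background stayed within 1.5 times that number under every background level, normalization, probe set summary and left-out array tried. Against 2 of 33 members called, limma called 1 of 58 without the filter and 1 of 33 with the replicate number as a block (Slc4a11 in either case). It called 5 of 23 with the background at the 99th percentile, 7 of 33 with an intensity trend and 7 of 33 with a robust trend. At the 99th percentile Slc4a11 passed the filter only through its shYTHDF3 arrays. Against 2 genes of the 6 lists, it called 0 without the filter, 0 with the block, 1 with the background at the 90th percentile, 5 at the 99th, 6 with a trend and 7 with a robust trend. All genes called numbered 356 (2.73% of those tested), and 43 without the filter (0.194%) and 51 with the block (0.391%). With the background at the 90th percentile they numbered 201 (1.33%), and at the 99th 1071 (11.4%). A trend gave 1426 (10.9%) and a robust trend 1465 (11.2%), so these settings called more of all genes, not of the members alone. The block ended the calls of Slc9a9 (limma adjusted p = 0.0764), Ttyh3 (0.0764), Lrrc8b (0.0790) and Ythdf3 (0.0758). The replicate numbers are not said to pair the arrays, and deviations of same-numbered arrays correlated at -0.066 across genes. With 1 array left out, 0 members and 0 list genes were called (0 to 12 of all genes); such a fit has fewer residual degrees of freedom, and the lone array was assumed to vary like the other group. Slc4a11 then changed by 1.19 to 1.53. With a common median Clcn3 turned to 0.013 and Slc12a9 to 0.014. Small changes turned sign with 1 array left out: Car11 (-0.18 to 0.017), Car7 (-0.28 to 0.12), Clcn3 (-0.081 to 0.067), Clcn6 (-0.016 to 0.060), Clcn7 (-0.0044 to 0.15), Slc12a4 (-0.42 to 0.045), Slc12a5 (-0.16 to 0.43), Slc12a9 (-0.18 to 0.17), Slc26a11 (-0.091 to 0.12), Slc26a6 (-0.00027 to 0.42), Slc4a2 (-0.22 to 0.54), Slc9a8 (-0.22 to 0.051), Lrrc8a (-0.024 to 0.094) and Lrrc8e (-0.22 to 0.079). The cause was not tested.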

Other observations

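The volume-regulated anion channel is built from Lrrc8a and other Lrrc8 subunits. Its genes were set side by side after their values had been seen. Lrrc8b rose by 0.76, while Lrrc8d, another subunit, read 5.60 and 5.44 in shControl against 4.98 and 5.02 in shYTHDF3, a change of -0.52 (SE 0.10) that did not pass (limma adjusted p = 0.0603, and 0.0521 to 0.248 over the alternatives). The obligatory subunit gene Lrrc8a differed by 0.03, Lrrc8c by -0.12 and Lrrc8e by -0.07, and none of these passed. Lrrc8b was higher and Lrrc8d lower on both shYTHDF3 arrays.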
